A study of Mus musculus with 12 samples.

Results

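The Hox genes were taken as every protein coding row of the deposited tables whose symbol is Hox followed by a cluster letter (a to d) and a paralog number, which gave 39 of 52636 genes: 11 Hoxa, 10 Hoxb, 9 Hoxc and 9 Hoxd genes, 27 with paralog numbers 1 to 9 and 12 with numbers 10 to 13. Messenger RNA had been sequenced from the colon of C57BL/6 mice. All mice carried ApcMin/+, a truncating mutation of the tumor suppressor gene Apc that leads to intestinal adenomas, so the normal tissue also came from tumor-prone mice. They were Cul4bWT (called WT here) or Cul4bΔIEC (KO), in which Cul4b, a scaffold gene of CRL4 ubiquitin ligases, is deleted in intestinal epithelial cells; the Cre driver is not given in the sources used here. Adenoma (T) and adjacent normal colon (N) had 1 library per genotype at each of 3, 4 and 5 months, so that 12 libraries formed 4 groups of 3 and age served as the replicate. Levels are in FPKM (reads divided by gene length and by a scaling total of the library), and triplets of values below follow the order 3, 4 and 5 months. The labels do not say whether each library is another animal, so p-values reflect the spread among libraries, which may be partly technical.

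Hox genes encode homeodomain transcription factors that give positional identity along the body axis. Within a cluster, genes with low paralog numbers lie at the 3′ end and are used at more anterior levels, and those with the highest numbers lie at the 5′ end and are used at the posterior end, which in the gut is the distal colon and rectum. Adult gut epithelium and the underlying mesenchyme both keep part of this code, and in the embryo the caudal factor Cdx2 acts upstream of central Hox genes. Polycomb complexes keep silent parts of the clusters repressed, and MLL complexes maintain active parts.

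The promoters of 4 of the called members in the RefSeq table are shown to let their letters be set beside their levels: Hoxd13, which rose in T in both genotypes, and Hoxb4, Hoxb8 and Hoxd8, which fell in T in at least 1 genotype under some settings and not others. Hoxb5, Hoxb6, Hoxb7, Hoxb9 and Hoxb13 are named only. Each line holds the 250 bases before the RefSeq start site (RefSeq table, build GRCm38.p6, all 4 on the plus strand), and capitals mark the words that were searched: CTTTGAT (bound by TCF/LEF factors of the Wnt pathway), TTTATTG and TTTATGG (CDX) and TTTACGA (HOX paralog 13), each on both strands.
Hoxd13, chr2:74667975-74668224: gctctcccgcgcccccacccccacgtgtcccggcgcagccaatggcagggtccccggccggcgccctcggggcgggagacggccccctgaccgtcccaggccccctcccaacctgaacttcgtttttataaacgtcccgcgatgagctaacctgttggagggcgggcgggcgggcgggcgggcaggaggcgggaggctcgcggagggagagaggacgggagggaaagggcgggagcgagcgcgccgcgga
Hoxd8, chr2:74704365-74704614: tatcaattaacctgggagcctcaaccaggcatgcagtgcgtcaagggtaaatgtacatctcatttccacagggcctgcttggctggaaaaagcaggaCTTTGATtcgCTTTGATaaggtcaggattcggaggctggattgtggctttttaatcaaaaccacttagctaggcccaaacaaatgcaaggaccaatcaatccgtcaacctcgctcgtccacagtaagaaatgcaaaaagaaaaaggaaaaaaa
Hoxb8, chr11:96281655-96281904: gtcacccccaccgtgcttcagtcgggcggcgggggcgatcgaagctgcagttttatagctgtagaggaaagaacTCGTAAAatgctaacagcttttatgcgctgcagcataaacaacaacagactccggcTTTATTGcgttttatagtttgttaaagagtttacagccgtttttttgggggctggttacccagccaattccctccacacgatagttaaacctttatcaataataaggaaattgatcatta
Hoxb4, chr11:96318017-96318266: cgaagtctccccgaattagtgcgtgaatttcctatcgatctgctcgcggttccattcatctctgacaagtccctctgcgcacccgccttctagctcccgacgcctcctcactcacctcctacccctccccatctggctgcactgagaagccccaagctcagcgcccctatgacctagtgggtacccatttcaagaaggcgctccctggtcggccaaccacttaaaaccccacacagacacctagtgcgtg
The stretch before Hoxd8 held 2 copies of CTTTGAT, which began 153 and 143 bases before the start. The stretch before Hoxb8 held TTTACGA on the opposite strand, 176 bases before the start, and TTTATTG, 120 bases before it. No searched word lay in the stretches shown for Hoxd13 and Hoxb4. The table also held promoters of the called members Hoxa2, Hoxa3, Hoxa7, Hoxa9, Hoxa11, Hoxd10 and Hoxd11. These are not printed, and no searched word lay in their 250 bases before the start. The RefSeq start of Hoxd13 lay 85 bases from the deposited gene start, and the bases just after it were not found in a GENCODE transcript of the gene. Promoters of 22 of the 39 genes (24 promoters) were in the RefSeq table, each 300 bases long with 50 bases after the start, and over this whole length CTTTGAT occurred in 1 of the 22 genes (Hoxd8), TTTATTG in 2 (Hoxb8 and Hoxd4), TTTATGG in 1 (Hoxd4) and TTTACGA in 2 (Hoxb8 and Hoxd11). Of all 32851 promoters of this length in the table, 3.73%, 4.60%, 2.75% and 0.597% held these words. A match is a description of the letters only. The Hox stretches of 250 bases had a median GC content of 58.6%, against 52.4% over all promoters.

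Reads in genes ranged from 18263611 to 25321931 per library (median 21183824). Cul4b was at 7.88 to 14.96 FPKM in the 6 WT libraries and at 0.920 to 2.99 FPKM in the 6 KO libraries. Epcam, an epithelial surface marker, was at 617 to 1541 FPKM over the 12 libraries. The N libraries of 3 months stood apart from those of 4 and 5 months in both genotypes, in Hox genes and in other genes, as described below. The 5-month libraries were deposited in a table of their own with its own scaling, so 5-month levels stand on a separate scale (shares and ratios within a library are not touched by it), and any order of the 3 ages below is a description with no test.

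The colon used Hoxa, Hoxb and Hoxd genes and hardly any Hoxc gene. Of the 39 genes, 22 averaged 0.5 FPKM or more across libraries and were tested (9 Hoxa, 7 Hoxb and 6 Hoxd), and 10 had a mean of at least 5 FPKM. The highest mean was that of Hoxb13 (34.1 FPKM), followed by Hoxb9 (21.7 FPKM), Hoxd13 (17.4 FPKM), Hoxa10 (17.2 FPKM) and Hoxb6 (14.4 FPKM). These means average over tissues in which several of these genes were nearly silent. No Hoxc gene had more than 12 reads in any library. All 9 Hoxc genes together had 3 to 27 reads in the N libraries, the highest being those of 4 months (22 reads in WT and 27 reads in KO), and 0 to 4 reads in the T libraries. Hoxc13 had no read in any library, where 3 reads would have given 0.0426 to 0.0814 FPKM. Other genes below the level for testing included Hoxb3 and Hoxd4. Hoxb3 was at 0.188, 0.964 and 0.581 FPKM in WT and 0.182, 1.43 and 1.54 FPKM in KO in N and at 0 to 0.0254 FPKM in T, so that all T libraries lay below all N libraries. Hoxd4 was at 0.0417, 0.950 and 0.159 FPKM in WT and 0.0350, 0.668 and 0.654 FPKM in KO in N and at 0 to 0.0466 FPKM in T.

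**Figure D1:**
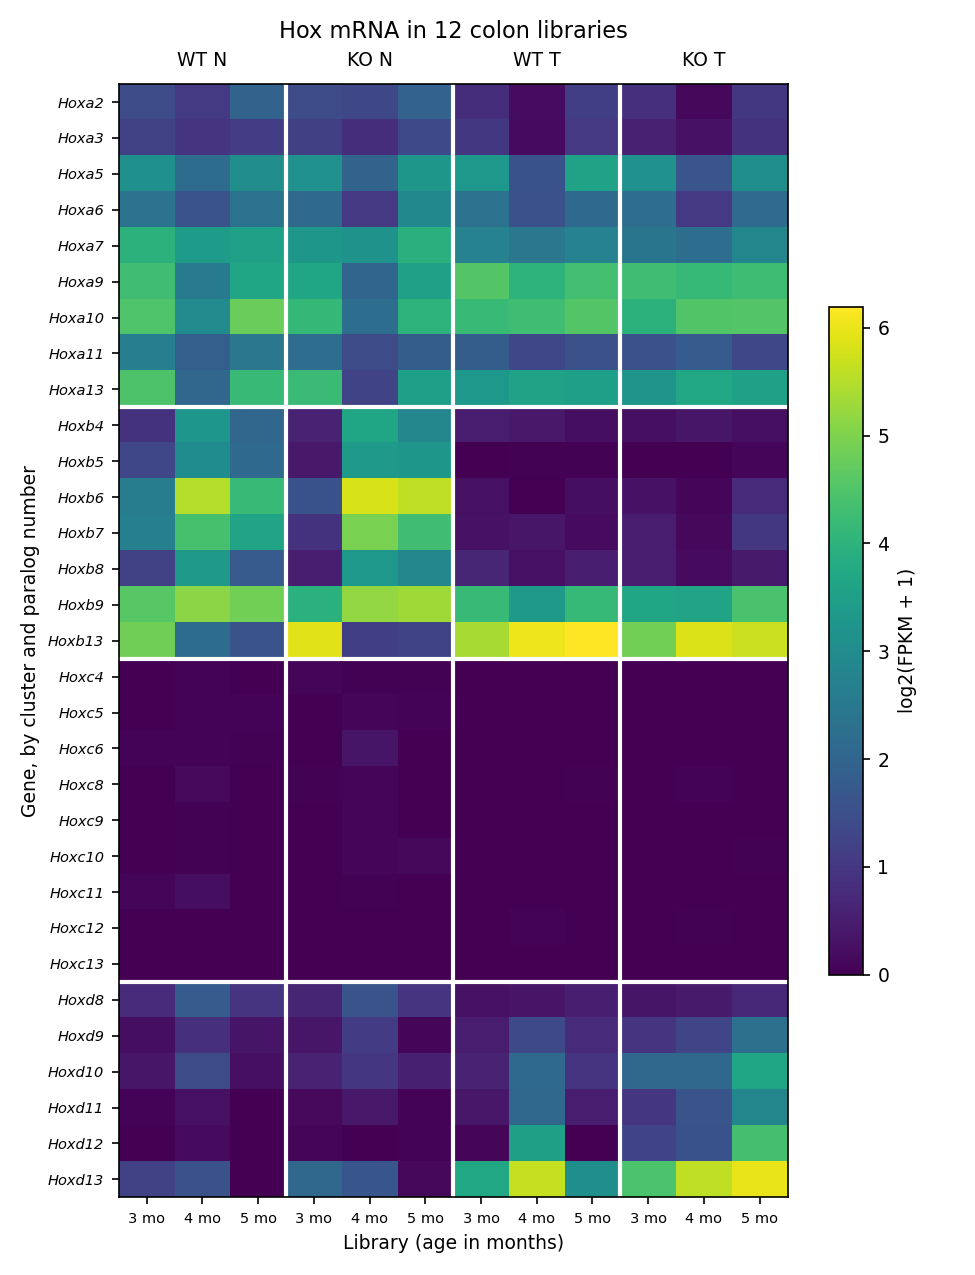
Heat map of log2(FPKM + 1) for the 22 tested Hox genes and the 9 Hoxc genes (rows, by cluster and paralog number) in the 12 libraries (columns, by group and age in months). Hoxb4 to Hoxb8 are brighter in the N libraries of 4 and 5 months than in T, where they are dark, the 9 Hoxc genes are dark throughout, and Hoxb13 and Hoxd13 are bright in T.

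Among the N libraries, those of 3 months held a higher share of 5′ Hox mRNA than those of 4 and 5 months. Genes with paralog numbers 10 to 13 made up 47.0%, 11.9% and 32.3% of the summed Hox FPKM in the WT N libraries and 64.9%, 6.24% and 14.6% in the KO N libraries. In T the same share was 57.0%, 81.7% and 65.3% in WT and 61.3%, 79.6% and 73.8% in KO. The N share of 3 months in KO thus lay within the T range, and the other 5 N libraries lay below all T libraries. Insl5, a peptide hormone of enteroendocrine L cells of the colon, was at 164, 16.3 and 28.5 FPKM in WT and 342, 10.5 and 14.1 FPKM in KO in N, so it was highest in the same 2 N libraries in which Hoxb13 was highest. It was at 3.28 to 10.9 FPKM in T. The smooth muscle list (10 genes) summed to 783 FPKM in the KO N library of 3 months and to 151 FPKM in the WT one, against 43.2 to 104 FPKM in the other 4 N libraries. The part of tissue site and of muscle in the Hox values was not tested.

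The comparison of 4 with 3 months, over both tissues and genotypes, asked whether members differed between these ages. None of the 22 passed (limma adjusted p under 0.05), where 0.0322% of all 15526 genes tested did, and limma voom called 0. At an unadjusted limma p under 0.05 there were 10 of the 22, where 3162 of the 15526 genes were found. In this comparison, which shares 1 age term between N and T, all 9 Hoxa genes tested were lower at 4 months (log2 differences of -1.33 to -0.28). All 6 of Hoxb4 to Hoxb9 were higher, by 0.23 to 1.66, as were the 6 Hoxd genes, by 0.54 to 0.97. Hoxb13 was lower at 4 months, with a difference of -1.45 ± 0.93 (SE). The tissues did not always go the same way. In T, Hoxb13 was higher at 4 than at 3 months (64.4 against 41.0 FPKM in WT, 57.2 against 28.2 FPKM in KO). Hoxa13 was also higher there (10.9 against 8.91 FPKM in WT, 11.8 against 8.26 FPKM in KO). Hoxb9 was lower there (9.18 against 17.2 FPKM in WT, 11.2 against 11.5 FPKM in KO). Hoxa5, which acts in lung and gut mesenchyme, came closest, with a difference of -1.33 ± 0.17 (SE, adjusted p = 0.0655). It was at 7.56, 3.54 and 7.37 FPKM in WT and 7.84, 2.94 and 8.68 FPKM in KO in N and at 8.88, 1.97 and 10.8 FPKM in WT and 7.73, 2.10 and 7.47 FPKM in KO in T, so within each of the 4 groups the 4-month library was the lowest. Hoxa11os, the antisense transcript of Hoxa11, was 1 of the 5 genes that passed and was lower at 4 months, with a log2 difference of -1.80 ± 0.20 (adjusted p = 0.0368). With 1 library per group at each age, age and any batch of these libraries cannot be told apart.

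Between T and N, Hox genes moved in both directions, with central Hoxb genes lower in T and Hoxd13, joined in KO by Hoxa9, Hoxd10 and Hoxd11, higher. In WT, 1 of the 22 members tested rose (Hoxd13), where 16.3% of all genes tested rose, and 8 fell (Hoxa2, Hoxa7, Hoxa11, Hoxb4 to Hoxb7 and Hoxd8), where 19.9% of all genes fell. In KO, 4 rose (Hoxa9, Hoxd10, Hoxd11 and Hoxd13), where 14.0% of all genes rose, and 8 fell (Hoxa2, Hoxa3, Hoxa7, Hoxb4 to Hoxb8), where 16.0% of all genes fell. The median log2 difference, T minus N, was -0.88 in WT and -0.92 in KO over the 14 tested members with numbers 1 to 9, and 0.71 and 1.75 over the 8 with numbers 10 to 13. The median over all genes was 0.01 in WT and 0.02 in KO. The medians of the 2 classes depend partly on the filter, a mean over both tissues. Some members passed it only through the tissue in which they were high. Hoxd11 had a mean of 0.128 FPKM in N and 2.19 FPKM in T, and Hoxb5 of 5.01 and 0.0235 FPKM. When FPKM were rescaled to equal sums (TPM), the median of all genes moved to 0.65 in WT and 0.50 in KO, 8 members passed in WT, 5 of them higher, and 12 in KO, 7 of them higher. Under TPM 51.6% of all genes rose and 7.25% fell in WT, and 41% and 7.54% in KO. The share of higher genes among all calls moved with it from 45.0% to 87.7% in WT and from 46.6% to 84.5% in KO. Without both N libraries of 3 months, a comparison chosen after the values were seen, 12 members passed in WT, 3 of them higher, and 13 in KO, 5 of them higher. In that fit 16.1% of all genes rose and 17.8% fell in WT, and 15% and 15.3% in KO. In bulk tissue, fewer cells of a type and less RNA per cell cannot be told apart.

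**Figure D2:**
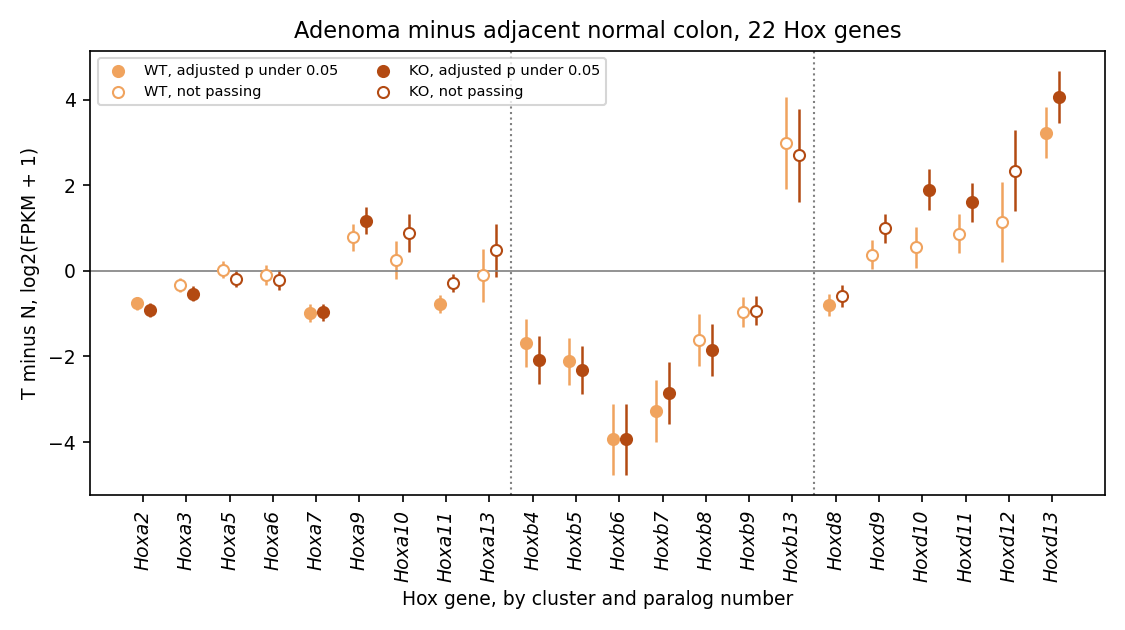
T minus N log2 difference of FPKM + 1 for the 22 tested Hox genes in cluster and paralog order, with bars of 1 SE from the model of 12 libraries, for WT (light) and KO (dark), filled where the adjusted p was under 0.05. Hoxb4 to Hoxb9 lie below 0 and Hoxd9 to Hoxd13 lie above 0 in both genotypes.

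Hoxb4 to Hoxb9 form a block at the 3′ and central part of the Hoxb cluster (chromosome 11, mm10) and were lower in T than in N at all 3 ages in both genotypes. Hoxb6 (chr11:96292476-96301569), a gene of the middle of the cluster, fell in both genotypes. In N it was at 5.16, 44.5 and 17.1 FPKM in WT and 1.97, 55.2 and 47.3 FPKM in KO, and in T it was at 0.215, 0 and 0.165 FPKM in WT and 0.233, 0.0712 and 0.703 FPKM in KO. The WT T library of 4 months had no Hoxb6 read, where 3 reads would have given 0.0687 FPKM. All 6 T libraries lay below all 6 N libraries, and within N the 3-month libraries were the lowest. The difference was -3.94 ± 0.83 in WT (adjusted p = 0.00598) and -3.94 ± 0.83 in KO (adjusted p = 0.00720), and it passed in 24 of 26 alternatives in WT and 24 of 26 in KO. Hoxb7 was at 5.41, 19.9 and 11.3 FPKM in WT and 0.869, 29.96 and 18.8 FPKM in KO in N. In T it was at 0.228, 0.291 and 0.140 FPKM in WT and 0.385, 0.0906 and 0.990 FPKM in KO, so that only the KO N library of 3 months came down to the T range. Its difference was -3.28 ± 0.72 in WT (adjusted p = 0.00725) and -2.86 ± 0.72 in KO (adjusted p = 0.0162). Hoxb5, another gene of the block, was at 1.5003, 7.04 and 3.36 FPKM in WT and 0.333, 9.05 and 8.76 FPKM in KO in N. It was at 0.0126, 0.0323 and 0.0258 FPKM in WT and 0.0164, 0 and 0.0535 FPKM in KO in T, which is at most 4 reads in a library, and the groups did not overlap. The difference of Hoxb5 was -2.12 ± 0.56 in WT (adjusted p = 0.0162) and -2.31 ± 0.56 in KO (adjusted p = 0.0133). By limma voom, which adds no pseudocount of 1 FPKM, it was -6.83 in WT and -7.75 in KO, against -7.64 and -6.34 for Hoxb6. Hoxb4, known for its role in blood stem cell expansion, was at 0.862, 8.51 and 3.12 FPKM in WT and 0.503, 11.4 and 6.33 FPKM in KO in N. In T it was at 0.384, 0.333 and 0.182 FPKM in WT and 0.196, 0.286 and 0.189 FPKM in KO, below all N libraries. It differed by -1.69 ± 0.56 in WT (adjusted p = 0.0423) and -2.08 ± 0.56 in KO (adjusted p = 0.0218), and passed in 13 of 26 alternatives in WT and 17 of 26 in KO. Its WT call ended with no replicate block (adjusted p = 0.103) and under TPM (0.0597), among others.

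Of Hoxb8 and Hoxb9, at the 5′ side of this block, Hoxb8 passed in KO and Hoxb9 in neither genotype. In N, Hoxb8 was at 1.28, 9.25 and 2.41 FPKM in WT and 0.431, 8.82 and 6.21 FPKM in KO. Its T values were 0.574, 0.205 and 0.437 FPKM in WT and 0.417, 0.133 and 0.368 FPKM in KO, and the KO N library of 3 months lay among them. The difference was -1.62 ± 0.61 in WT (adjusted p = 0.0642) and -1.84 ± 0.61 in KO (adjusted p = 0.0474), and the KO call held in 12 of 26 alternatives. Hoxb9 kept the highest T level of the 6 genes. It was at 22.9, 34.04 and 28.4 FPKM in WT and 14.4, 35.6 and 38.9 FPKM in KO in N and at 17.2, 9.18 and 16.9 FPKM in WT and 11.5, 11.2 and 20.2 FPKM in KO in T. The 2 ranges overlapped, and its difference, -0.96 ± 0.35 in WT (adjusted p = 0.0563) and -0.93 ± 0.35 in KO (adjusted p = 0.0728), did not pass. Leaving out 1 library ended the call of Hoxb4 in WT for WT N of each age, KO N of 5 months, WT T of 4 and 5 months or KO T of 5 months (adjusted p = 0.0517 to 0.163) and in KO for N or T of 4 or 5 months in KO (0.0744 to 0.0976). It ended the call of Hoxb5 in WT for WT N of 4 months or WT T of 4 or 5 months (0.0667 to 0.0685), those of Hoxb5 in KO for KO N or T of 4 or 5 months (0.0538 to 0.0630), those of Hoxb7 in KO for KO N of 4 or 5 months or KO T of 4 months (0.0726 to 0.0739), and that of Hoxb8 in KO for WT N of 3 or 5 months, WT T of 5 months, or KO N or T of 4 or 5 months (0.0600 to 0.185). The sign of these 6 genes was below 0 under all 26 alternatives in both genotypes, the TPM scaling included.

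**Figure D3:**
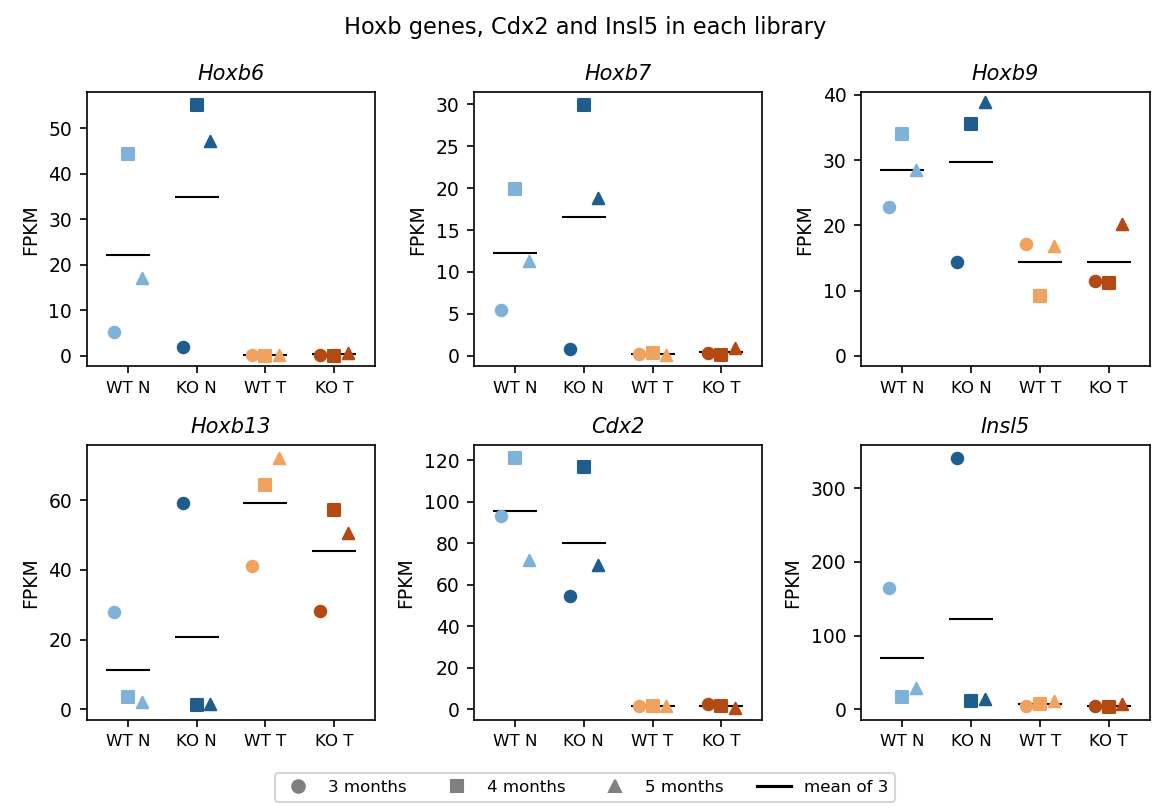
FPKM of 4 Hoxb genes, Cdx2 and Insl5 in each library, by group, with circles for 3, squares for 4 and triangles for 5 months and a line at the mean of 3. Hoxb6 and Hoxb7 are near 0 in T, and in N the 3-month circles are low for Hoxb6, Hoxb7 and Hoxb9 and high for Hoxb13 and Insl5.

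Hoxb13, the 5′ end gene of the Hoxb cluster (chr11:96194316-96197447) and a marker of distal colon and rectum, was high in all T libraries and in the N libraries of 3 months. In N it was at 28.004, 3.598 and 2.06 FPKM in WT and 59.3, 1.22 and 1.40 FPKM in KO. In T it was at 41.0, 64.4 and 72.3 FPKM in WT and 28.2, 57.2 and 50.7 FPKM in KO. The 4 N libraries of 4 and 5 months, at 1.22 to 3.598 FPKM, lay below all T libraries, while the KO N library of 3 months lay above 4 of the 6 T libraries. The T minus N difference was 2.98 ± 1.08 in WT (adjusted p = 0.0575) and 2.696 ± 1.08 in KO (adjusted p = 0.0914), neither of which passed. Without both N libraries of 3 months it was 4.24 in WT (adjusted p = 0.000114) and 4.54 in KO (adjusted p = 9.05e-05), and over all alternatives the WT difference passed in 8 of 26 and the KO difference in 6 of 26. Leaving out the KO N library of 3 months alone gave 2.98 (adjusted p = 0.0139) in WT and 4.12 (adjusted p = 0.00868) in KO. The ratio of Hoxb13 to Hoxb6 FPKM was 5.42 and 30.1 in the N libraries of 3 months and 0.0222 to 0.120 in the other 4 N libraries. It was 72.1 to 804 in the 5 T libraries with a Hoxb6 read.

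Of the 5′ genes Hoxd10 to Hoxd13, 1 passed in WT (Hoxd13) and 3 in KO (Hoxd10, Hoxd11 and Hoxd13), all higher in T. Hoxd13 (chr2:74668310-74671599), the end gene of its cluster and a factor of limb and hindgut patterning, was the one member that rose in both genotypes. It was at 1.34, 1.88 and 0 FPKM in WT and 3.20, 2.13 and 0.0941 FPKM in KO in N, where the WT library of 5 months had no read (3 reads would have given 0.0807 FPKM). In T it was at 12.1, 49.0 and 7.52 FPKM in WT and 20.8, 47.8 and 62.5 FPKM in KO. All 6 T libraries lay above all 6 N libraries. The difference was 3.23 ± 0.61 in WT (adjusted p = 0.00340) and 4.07 ± 0.61 in KO (adjusted p = 0.00135), and it passed in 26 of 26 alternatives in WT and in 26 of 26 in KO. Hoxd12, its neighbour, had at most 7 reads in an N library (0 to 0.143 FPKM) and was spread over a wide range in T. Its T values were 0.0555, 10.4 and 0.0142 FPKM in WT and 1.37, 1.96 and 19.7 FPKM in KO. The WT T libraries of 3 and 5 months stayed within the N range, and the difference, 1.14 ± 0.94 in WT (adjusted p = 0.381) and 2.34 ± 0.94 in KO (adjusted p = 0.0930), did not pass.

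Hoxd10 and Hoxd11 rose in KO and did not pass in WT. Hoxd10 was at 0.305, 1.69 and 0.184 FPKM in WT and 0.540, 0.961 and 0.450 FPKM in KO in N. In T it was at 0.523, 3.44 and 0.911 FPKM in WT and 3.23, 3.25 and 11.7 FPKM in KO, and the WT T libraries of 3 and 5 months overlapped N. It differed by 0.55 ± 0.47 in WT (adjusted p = 0.401) and 1.90 ± 0.47 in KO (adjusted p = 0.0151). Hoxd11 was at 0.0159 to 0.347 FPKM over the N libraries and at 0.326, 3.17 and 0.410 FPKM in WT and 0.989, 2.03 and 6.20 FPKM in KO in T. All T libraries but that of WT at 3 months were above all N libraries. The difference was 0.87 ± 0.46 in WT (adjusted p = 0.174) and 1.60 ± 0.46 in KO (adjusted p = 0.0280). The call of Hoxd10 in KO ended without KO N of 4 or 5 months (adjusted p = 0.0559 and 0.0617), and that of Hoxd11 without KO N of 4 or 5 months or KO T of 5 months (0.0808 to 0.0995). Hoxd9 was at 0.173, 0.826 and 0.281 FPKM in WT and 0.290, 1.16 and 0.0547 FPKM in KO in N and at 0.379, 1.58 and 0.673 FPKM in WT and 0.921, 1.46 and 3.91 FPKM in KO in T, and its difference, 0.37 ± 0.34 in WT (adjusted p = 0.425) and 0.99 ± 0.34 in KO (adjusted p = 0.0534), passed in neither. Hoxd8, on the 3′ side, went the other way: it was at 0.694, 2.51 and 0.901 FPKM in WT and 0.564, 2.07 and 0.936 FPKM in KO in N and at 0.218, 0.246 and 0.432 FPKM in WT and 0.267, 0.357 and 0.612 FPKM in KO in T, with a difference of -0.79 ± 0.25 in WT (adjusted p = 0.0361) and -0.58 ± 0.25 in KO (adjusted p = 0.115). Its WT call held in 13 of 25 alternatives and ended without WT N of 3 or 4 months or any 1 WT T library (0.0519 to 0.150).

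**Figure D4:**
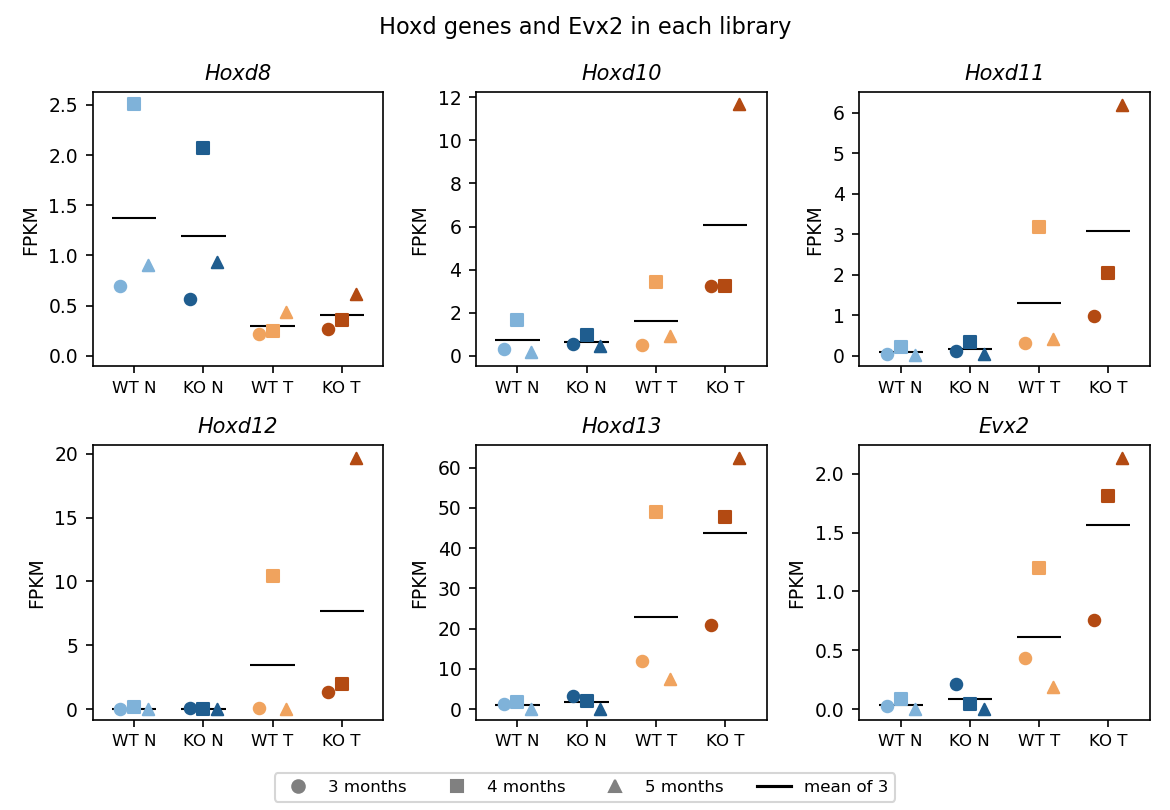
FPKM of 5 Hoxd genes and Evx2 in each library, by group, with circles for 3, squares for 4 and triangles for 5 months and a line at the mean of 3. Hoxd13 lies above N in all 6 T libraries, Hoxd8 is lower in T, and the KO T library of 5 months is the highest for Hoxd10 to Hoxd13 and Evx2.

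In the Hoxa cluster (chromosome 6), the 9 tested genes had T minus N log2 differences of -0.99 to 0.78 in WT and -0.97 to 1.17 in KO. Its 3′ genes Hoxa2 and Hoxa7 fell in both genotypes. Under TPM, Hoxa3 in WT and Hoxa11 in KO, neither called, had the other sign. Hoxa7, the more abundant, was at 14.9, 9.58 and 10.6 FPKM in WT and 8.69, 8.14 and 14.3 FPKM in KO in N and at 5.74, 4.51 and 5.76 FPKM in WT and 4.28, 3.73 and 6.22 FPKM in KO in T. The groups did not overlap, with differences of -0.99 ± 0.20 in WT (adjusted p = 0.00503) and -0.97 ± 0.20 in KO (adjusted p = 0.00655). Hoxa2, a gene of the hindbrain and branchial arches, was at 1.66, 1.08 and 2.94 FPKM in WT and 1.69, 1.55 and 2.86 FPKM in KO in N. It was at 0.753, 0.152 and 1.22 FPKM in WT and 0.799, 0.0985 and 1.01 FPKM in KO in T, with differences of -0.76 ± 0.16 in WT (adjusted p = 0.00550) and -0.91 ± 0.16 in KO (adjusted p = 0.00274). Under TPM the WT differences were -0.20 for Hoxa7 (adjusted p = 0.498) and -0.31 for Hoxa2 (adjusted p = 0.175), so both calls ended. They were -0.85 and -0.96 relative to the median of all genes under that scaling. In KO under TPM, Hoxa7 lost its call (-0.41, adjusted p = 0.185) and Hoxa2 did not (-0.60, adjusted p = 0.0236). Hoxa2 lost its calls with no replicate block (adjusted p = 0.119 in WT and 0.0773 in KO). Hoxa3 was at 1.28, 0.914 and 1.17 FPKM in WT and 1.26, 0.767 and 1.58 FPKM in KO in N and at 0.995, 0.142 and 1.05 FPKM in WT and 0.495, 0.233 and 0.862 FPKM in KO in T. It differed by -0.34 ± 0.17 in WT (adjusted p = 0.148) and -0.53 ± 0.17 in KO (adjusted p = 0.0407), and the KO call held in 7 of 25 alternatives. Hoxa11 was at 5.27, 2.65 and 4.50 FPKM in WT and 3.68, 1.70 and 2.55 FPKM in KO in N. In T it was at 2.54, 1.48 and 1.89 FPKM in WT and 1.92, 2.46 and 1.48 FPKM in KO, and the ranges overlapped. Its difference was -0.77 ± 0.22 in WT (adjusted p = 0.0211) and -0.28 ± 0.22 in KO (adjusted p = 0.368), and the WT call held in 15 of 26 alternatives. It ended without WT N of 3 or 5 months or any 1 WT T library (adjusted p = 0.0571 to 0.0931), and that of Hoxa3 in KO ended without any 1 of 9 libraries, the 6 of KO and WT N of 3 months and WT T of 3 or 5 months (0.0505 to 0.133).

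Of the 5′ side of the Hoxa cluster, Hoxa9 rose in KO, and Hoxa10 and Hoxa13 passed in neither genotype. Hoxa9, a gene best known from leukemia, was at 18.7, 4.97 and 11.7 FPKM in WT and 11.7, 3.04 and 10.7 FPKM in KO in N and at 22.3, 15.1 and 19.3 FPKM in WT and 18.8, 16.7 and 18.5 FPKM in KO in T. The 6 T libraries spanned 15.1 to 22.3 FPKM and the N libraries 3.04 to 18.7 FPKM. It differed by 0.78 ± 0.31 in WT (adjusted p = 0.0784) and 1.17 ± 0.31 in KO (adjusted p = 0.0204), and the KO call ended without the KO library of 4 months in N (adjusted p = 0.0839) or in T (0.0866). Hoxa10 was at 21.4, 6.996 and 26.6 FPKM in WT and 16.3, 3.73 and 14.9 FPKM in KO in N. Its T levels were 17.3, 18.6 and 22.2 FPKM in WT and 14.7, 21.7 and 22.1 FPKM in KO. The difference was 0.25 ± 0.43 in WT (adjusted p = 0.687) and 0.88 ± 0.43 in KO (adjusted p = 0.159), which did not pass. Hoxa13, the end gene, which patterns hindgut and limb, was at 21.0, 3.15 and 17.2 FPKM in WT and 17.8, 1.41 and 10.4 FPKM in KO in N. In T it was at 8.91, 10.9 and 10.2 FPKM in WT and 8.26, 11.8 and 10.7 FPKM in KO, inside the N range. Its difference was -0.11 ± 0.63 in WT (adjusted p = 0.909) and 0.48 ± 0.63 in KO (adjusted p = 0.611), and its sign in both genotypes depended on the libraries used. In N, the 3 genes were lowest at 4 months in both genotypes, while Hoxb13 was low at both 4 and 5 months. Hoxa5 (0.029 in WT and -0.18 in KO) and Hoxa6 (-0.088 and -0.21) did not pass.

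**Figure D5:**
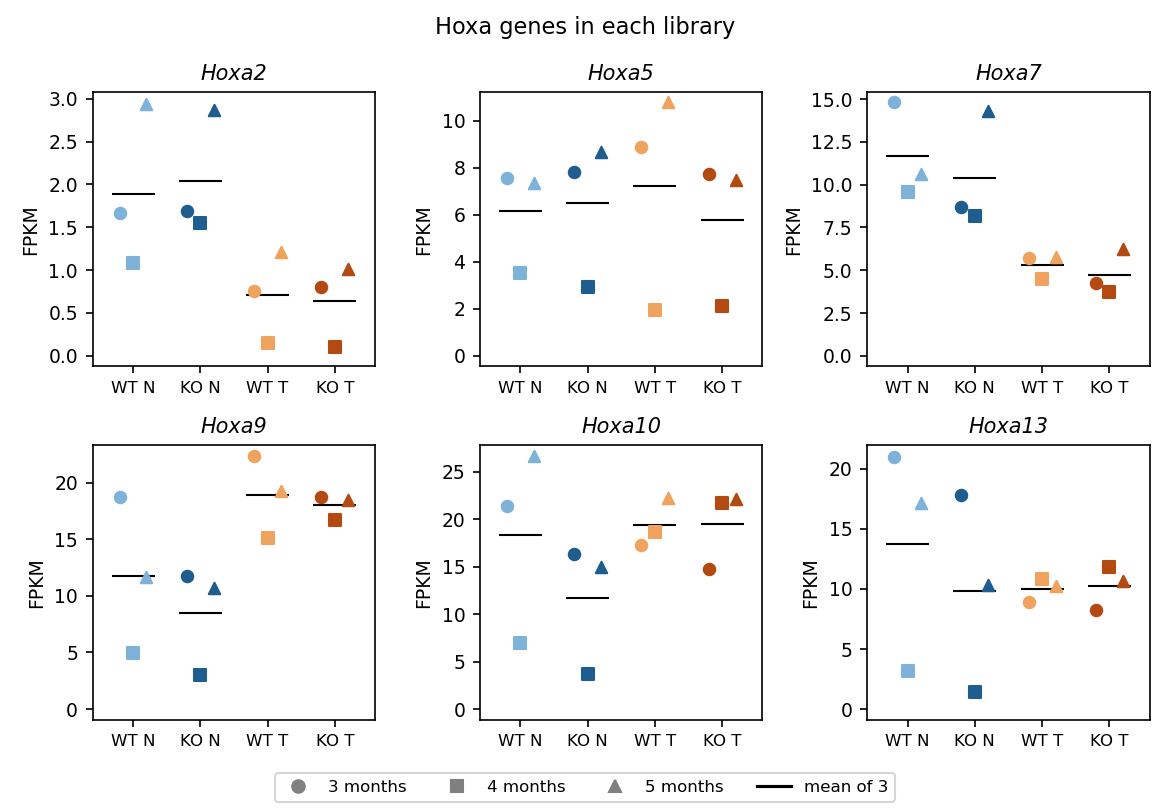
FPKM of 6 Hoxa genes in each library, by group, with circles for 3, squares for 4 and triangles for 5 months and a line at the mean of 3. Hoxa7 is lower in all T libraries, the T levels of Hoxa9, Hoxa10 and Hoxa13 lie close together, and the 4-month squares are low for Hoxa5 in all groups and for Hoxa9, Hoxa10 and Hoxa13 in N.

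Summed over the members, Hox FPKM was 156 to 205 in N and 129.7 to 251 in T. The sum of Hoxb1 to Hoxb9 was 18.8 to 152 FPKM in N and 10.1 to 22.6 FPKM in T, and that of Hoxd10 to Hoxd13 was 0.1998 to 3.92 FPKM in N and 8.85 to 99.99 FPKM in T. The first pair of ranges overlapped in the KO N library of 3 months, and the second did not overlap.

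The comparison of KO with WT asked whether loss of epithelial Cul4b goes with a change of Hox genes. None of the 22 members passed in T, where 0.00644% of all genes did, none passed in N, where 0.00644% did, and none passed in the genotype by tissue interaction, where 0.0% did (limma, adjusted p under 0.05). At an unadjusted p under 0.05, 1 member was found in T (Hoxd10), 1 in N (Hoxa11) and 0 in the interaction. Of all 15526 genes, 128, 228 and 183 were found at this level in the same 3 comparisons. By limma voom on the reads recovered from FPKM, 0 members passed in these 3 comparisons as well, and 0 passed under each of the other alternatives that could be fitted. In T, the log2 differences, KO minus WT, were 1.38 ± 0.47 for Hoxd10, 0.83 ± 0.46 for Hoxd11, 1.19 ± 0.94 for Hoxd12 and 1.201 ± 0.61 for Hoxd13 (adjusted p = 1.0 for each). The difference of Hoxd13 by age was 0.74 at 3, -0.035 at 4 and 2.90 at 5 months. The other 18 members lay between -0.40 and 0.65 in T. In N, the 22 members lay between -0.64 and 0.37. The calls of Hoxd10 and Hoxd11 in KO without a call in WT therefore do not show that the genotypes differ: their interaction was 1.35 ± 0.67 and 0.73 ± 0.65 (SE, adjusted p above 0.99 for both).

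Noncoding genes of the clusters were noted apart. Of 7 tested, 3 fell in WT with none rising, and in KO 3 fell and 1 rose. Of all genes tested, 19.9% fell and 16.3% rose in WT, and 16.0% and 14.0% in KO. Under TPM 3 noncoding genes fell and 2 rose in each genotype, and by limma voom 3 fell and 0 rose. Hoxb5os, an antisense transcript that overlaps Hoxb5 and Hoxb6, was at 0.707, 8.65 and 4.42 FPKM in WT and 2.97, 8.41 and 11.8 FPKM in KO in N and at 0 to 0.321 FPKM in T, and fell by 2.05 ± 0.44 in WT (adjusted p = 0.00679) and 2.80 ± 0.44 in KO (adjusted p = 0.00182). Hoxaas3, antisense in the 3′ part of the Hoxa cluster, fell as well (-1.09 ± 0.14 in WT, adjusted p = 0.000587, and -0.91 ± 0.14 in KO, adjusted p = 0.00178). The gene row of Mir10a, a microRNA gene in the Hoxb cluster, fell too, with 0.559 to 6.37 FPKM in N and 0 to 0.339 FPKM in T. This row is very short, so its levels rest on few reads in any library. The gap between its lowest N and highest T level is therefore within counting error. Hottip, the transcript beside Hoxa13, was at 5.85, 0.577 and 1.32 FPKM in WT and 5.25, 0.391 and 1.46 FPKM in KO in N, highest at 3 months in both genotypes, and did not pass (-0.17 in WT and -0.10 in KO). Of the 39 members, 23 overlapped the span of another gene, 14 of them one on the other strand. The strand setting of the counting is not given in the sources used here, so reads of Hoxb5, Hoxb6 and Hoxb5os, or of Hoxa7 and Hoxaas3, cannot be told apart where they overlap.

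Of 12 tested genes in or near the flanks of the clusters, 3 were higher in T and 4 lower in WT, with 5 higher and 2 lower in KO (limma). The shares of all genes were 16.3% higher and 19.9% lower in WT, and 14.0% and 16.0% in KO. Under TPM 6 rose in WT and 7 in KO, with 0 falling, where 51.6% and 41% of all genes rose. The 2 even-skipped homeobox genes lie beyond the 5′ ends of Hoxa and Hoxd. Evx1, beside Hoxa13, was at 1.62, 0.433 and 0.580 FPKM in WT and 0.915, 0.411 and 0.548 FPKM in KO in N and at 7.29, 15.7 and 7.21 FPKM in WT and 8.54, 12.1 and 13.1 FPKM in KO in T, without overlap, and rose by 2.53 ± 0.33 in WT (adjusted p = 0.000610) and 2.91 ± 0.33 in KO (adjusted p = 0.000365). Evx2, beside Hoxd13, was at 0 to 0.209 FPKM in N and at 0.437, 1.203 and 0.189 FPKM in WT and 0.754, 1.81 and 2.14 FPKM in KO in T. It rose in KO and did not pass in WT, with differences of 0.58 ± 0.26 in WT (adjusted p = 0.111) and 1.21 ± 0.26 in KO (adjusted p = 0.00791). Snx10, a sorting nexin gene some way off the Hoxa cluster, also rose (1.26 and 1.45), and Atp5g1, a gene of mitochondrial ATP synthase near the Hoxb cluster, fell (-1.15 and -1.200).

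Genes known to regulate Hox clusters, or to mark gut position, were read from fixed lists. Of the caudal genes, both that were tested fell. Cdx2, the master factor of intestinal identity, was at 93.2, 121 and 71.8 FPKM in WT and 54.4, 117 and 69.7 FPKM in KO in N and at 1.29, 1.65 and 1.32 FPKM in WT and 2.43, 1.67 and 0.561 FPKM in KO in T, and differed by -5.29 ± 0.28 in WT (adjusted p = 2.27e-05) and -4.99 ± 0.28 in KO (adjusted p = 3.32e-05). Cdx1 was at 79.2 to 129.6 FPKM in N and at 15.3 to 37.7 FPKM in T (-2.10 in WT and -2.13 in KO). Of 5 tested region genes, 1 rose and 2 fell in each genotype. Cldn8, a distal claudin, fell (-2.10 and -2.30), and Onecut2 rose (2.499 and 2.49). Insl5 (-2.52 and -2.82) and Gata6 (-0.41 and -0.31) did not pass. At an unadjusted limma p under 0.05 there were 5 of the 5 region genes in WT and 4 in KO. Limma voom called 1 higher and 4 lower in WT, so all 5, and 1 higher and 3 lower in KO. Under TPM 1 rose and 1 fell in each genotype. Of 5 TALE genes, which encode the DNA binding partners of Hox proteins, 0 passed in either genotype (limma adjusted p under 0.05), and limma voom called 0. At an unadjusted limma p under 0.05 there were 0 in WT and 1 in KO, where 7094 and 6346 of all 15526 genes were found. Under TPM 2 of the 5 TALE genes rose in WT and 1 in KO, where 51.6% and 41% of all genes rose.

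Of 29 Polycomb genes, 8 rose in WT with none falling, and in KO 8 rose and 2 fell. Of all genes tested, 16.3% rose and 19.9% fell in WT, and 14.0% and 16.0% in KO. Under TPM 23 rose in WT and 20 in KO, with 0 falling, where 51.6% and 41% of all genes rose. Cbx2, a reader subunit of Polycomb repressive complex 1, had the smallest p of the list in WT (1.33 ± 0.13 in WT (adjusted p = 0.000163) and 1.45 ± 0.13 in KO (adjusted p = 0.000143)). Ezh2, the H3K27 methyltransferase, was at 4.59 to 6.75 FPKM in N and at 10.01 to 12.01 FPKM in T (0.81 and 0.86). Phf1 and Phf19, accessory subunits, fell in KO (-1.01 and -0.60). Of 12 MLL/COMPASS and H3K27 demethylase genes, 4 passed upward in WT, as did 3 in KO, with none falling (under TPM, 10 and 9). The shares of all genes that rose were 16.3% in WT and 14.0% in KO, and 51.6% and 41% under TPM. Kdm6b, an H3K27 demethylase, rose by 1.33 ± 0.23 in WT (adjusted p = 0.00229) and 0.80 ± 0.23 in KO (adjusted p = 0.0285). In the retinoic acid pathway, which sets anterior Hox genes in the embryo, the WT count was 6 of 10 higher and 2 lower in T, and the KO count 5 higher and 3 lower. Under TPM 7 of these rose and 1 fell in each genotype. Aldh1a1, a retinaldehyde dehydrogenase, fell (-5.10 ± 0.59 in WT (adjusted p = 0.000326) and -4.72 ± 0.59 in KO (adjusted p = 0.000585)). In N it was at 33.9, 69.1 and 72.4 FPKM in WT and 8.74, 109 and 95.9 FPKM in KO, lowest at 3 months in both genotypes, as were Hoxb4 to Hoxb8. Rdh10, a retinol dehydrogenase, rose (1.67 and 1.77). Of 6 homeobox and Fox genes of gut mesoderm, 1 rose in each genotype: Isl1 (2.05 and 2.40).

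Markers of cell types moved between T and N as well, where 16.3% of all genes rose and 19.9% fell in WT, and 14.0% and 16.0% in KO. Of 11 epithelial markers, 8 fell in WT and 6 in KO with none rising (under TPM, 3 fell and 1 rose in WT and 2 fell and 1 rose in KO, and Epcam and Cldn7 in WT had the other sign), with a median difference of -1.14 and -0.83, and their sum was 7448 to 19003 FPKM in N and 3044 to 6009 FPKM in T. Of 10 fibroblast markers, 1 rose in each genotype (Col1a1), and the sum was 37.2 to 218 FPKM in N and 70.7 to 173 FPKM in T. Under TPM 6 fibroblast markers rose in WT and 5 in KO, with 0 falling, where 51.6% and 41% of all genes rose. Of 10 smooth muscle markers, 0 passed in WT, where 0 had an unadjusted p under 0.05 and limma voom called 0, and 1 fell in KO (Tagln), with sums of 43.2 to 783 FPKM in N and 38.5 to 379 FPKM in T. Of 8 immune markers, 4 were called in WT, all higher in T, and 5 in KO, of which 2 were lower, with sums of 123 to 442 FPKM in N and 412 to 1433 FPKM in T. Limma voom called 4 immune markers higher and 2 lower in each genotype. Under TPM 5 were higher and 0 lower in WT, and 4 higher and 2 lower in KO. Of 7 endothelial markers, 1 rose in each genotype (Cdh5), with sums of 4.48 to 8.96 FPKM in N and 4.82 to 18.5 FPKM in T. Under TPM 4 endothelial markers rose in WT and 1 in KO, and 0 smooth muscle markers passed in either genotype. Of 3 neural and glial markers tested, 0 passed in either genotype by limma, 0 at an unadjusted p under 0.05 and 0 by limma voom, with sums over the list of 1.35 to 21.0 FPKM in N and 0.928 to 5.01 FPKM in T. Under TPM 1 of them rose in WT and 0 in KO. No defining marker of the epithelium was at 0 in any library. The part of cell composition in the Hox differences was not tested.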

How the data were processed

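Colon RNA was sequenced in 12 libraries, grouped by genotype and tissue from their labels. The submitters' processing notes name mm10, StringTie, featureCounts 1.5.0-p3 and DESeq2 as what the authors used, and the deposited values are FPKM, in a table for 3 and 4 months and a separately scaled one for 5 months. No aligner or annotation release is named in the sources used here. Gene length, deposited in bases (a unit other than FPKM), times FPKM gave whole reads in 100% of values (tolerance 0.01). The scaling total implied by the deposited FPKM was 0.720 to 0.915 times the reads in genes in N and 1.13 to 1.30 times in T.

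Differences were tested with limma 3.58.1 (R 4.3.3; lmFit, eBayes with trend) on log2(FPKM + 1), a scale that understates changes of low genes, with group and age as terms and all 12 libraries. A mean FPKM of 0.5 or more was required (15526 genes), with 6 residual and 3.06 prior degrees of freedom, and Benjamini-Hochberg adjusted p under 0.05 counted as passing. The script was tested on simulated data. Intervals set by 3 reads cover counting error only.

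The age term acts as the replicate block, since replicate numbers are ages. Deviations from group means of same-age libraries correlated at 0.34 to 0.78 between genotypes and at 0.019 to 0.45 between T and N, below 0.1 at 4 months.

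Members and gene lists were chosen with earlier results of these data known. Values are given for members with a mean of at least 5 FPKM, for called members (up to 10 per direction) and for paralog 13 genes, and of other lists up to 4 genes with the smallest p in T minus N of WT. Hoxd9, Hoxd12, Hoxb3, Hoxd4, Epcam, Insl5, Phf1, Phf19, Hoxa11os, Hottip and Evx2 fall outside this rule and were picked after their values were seen. Of the list symbols, Prac1, Prac2, Hotairm2, Hoxc13as, Haglros and Kiaa1715 matched no row and Itgam matched 2; they were not used here. Values of some list genes and members are not reported here. The 26 alternatives were other pseudocounts, filters and scalings, other model terms, limma voom on recovered reads, and leaving out libraries or ages. Promoters (RefSeq, GRCm38.p6) were searched over 300 bases, and the 250 before the start are printed.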

Additional observations from a re-analysis of the deposited data

How the results depend on the processing

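Under 26 alternatives (25 for the interaction, which needs all 4 groups), the counts of members that passed in the genotype comparisons and the interaction stayed at 0. In WT, the count of members higher in T (1) was 2 with a pseudocount of 0.1, 5 under TPM, 3 with an age term within tissue, 2 with only the 2 groups compared, 2 by limma voom with the deposited scaling and 3 without both N libraries of 3 months (chosen after seeing the data), and 1 to 2 when leaving out a library or an age; of all genes, 16.6%, 51.6%, 24.1%, 12.5%, 17.3% and 16.1% rose in the first 6 of these. The count of members lower in T in WT (8) was 5 with no filter on low values, 3 under TPM, 4 with no replicate block and 1 to 10 when leaving out a library or an age; of all genes, 8.55%, 7.25% and 13% fell in the first 3. In KO, the count of members higher in T (4) was 6 with a pseudocount of 0.1, 7 under TPM, 8 with an age term within tissue, 2 with only the 2 groups compared and 1 to 5 when leaving out a library or an age; of all genes, 14.1%, 41%, 22% and 5.29% rose in the first 4. The count lower in T in KO (8) was 5 under TPM, 4 with no replicate block, 2 with only the 2 groups compared and 1 to 8 when leaving out a library or an age; of all genes, 7.54%, 9.98% and 7.05% fell in the first 3. The 4 against 3 months count (0) was 1 with a filter at a mean of 2 FPKM and 1 without both N libraries of 3 months, Hoxa5 in both.

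Of 54 member values, 38 alternative values had the other sign, and 0 of these passed. Under TPM these were in WT Hoxa3 (0.073), Hoxa6 (0.59) and Hoxa13 (0.70), and in KO Hoxa5 (0.35), Hoxa6 (0.23) and Hoxa11 (0.16), where the median of all genes moved to 0.65 and 0.50. Hoxa5 in WT was -0.014 with a pseudocount of 0.1 and -0.064 without both N libraries of 3 months, where Hoxa13 in WT was 0.44. Leaving out a library or an age gave ranges that crossed 0. These were, for T minus N in WT, Hoxa5 (-0.20 to 0.35), Hoxa6 (-0.23 to 0.092), Hoxa10 (-0.27 to 0.52), Hoxa13 (-0.92 to 0.41) and Hoxd12 (-0.14 to 2.05). For T minus N in KO they were Hoxa6 (-0.42 to 0.10) and Hoxa13 (-0.49 to 1.23). For KO minus WT in T this was Hoxd12 (-0.39 to 2.76). For the interaction they were Hoxd11 (-0.060 to 1.41), Hoxd12 (-0.34 to 2.68) and Hoxd13 (-0.13 to 1.40).

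The cause of these shifts was not tested. Limits are the 3 libraries per group, the 2 N libraries of 3 months and the low depth of some members: Hoxb5 in T rests on at most 4 reads in a library, and Hoxd12 in N on at most 7.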
